A study of Homo sapiens with 8 samples.

Results

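The genes described are the caveolins CAV1 and CAV2, the cavins CAVIN1, CAVIN2 and CAVIN3, and the caveola neck genes EHD2 and PACSIN2. They were chosen by symbol, and all 7 were found among the 60622 genes of the deposited count table. RNA was read from 8 libraries of 2 human prostate cancer cell lines, with 2 libraries in each of 4 groups: PC3 with miR-375 overexpressed, PC3 control, LNCaP with miR-375 overexpressed and LNCaP control. miR-375 is a microRNA, a short RNA that pairs with messenger RNAs through its seed. PC3 came from a bone metastasis and lacks androgen-receptor signalling, and LNCaP came from a lymph node metastasis and responds to androgen. PC3 grew in 20% serum and LNCaP in 10%, so line and serum cannot be told apart. The labels give neither the means nor the duration of the overexpression, nor the treatment of the controls.

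Caveolae are small flask-shaped pits of the plasma membrane. CAV1 protein oligomers embed in the inner leaflet, CAV2 joins them, and cavins form a coat around the bulb, for which CAVIN1 is required. EHD2, an ATPase, sits at the neck and holds the pit at the surface, and PACSIN2 bends the membrane there. In prostate cancer lines caveolin 1 has long been used to set PC3 apart from LNCaP, and PC3 is known for having caveolin 1 without the CAVIN1 coat protein.

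The sequences below show what a miR-375 seed match looks like and where the 3′ UTRs of these genes hold one. The mature strand is given first (RefSeq, GRCh38.p14, 2:219001648-219001669, minus strand), with its seed, bases 2 to 8, in capitals.
hsa-miR-375-3p: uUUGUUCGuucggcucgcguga
Matches were sought in the GENCODE v29 coding transcript with the longest 3′ UTR of each gene, as GAACAA (the partner of bases 2 to 7), with a C before it (base 8) or an A after it. Of the 7 genes 3 had a match in the 3′ UTR, shown in windows of 30 bases on the transcript strand with the match in capitals.
CAVIN2, 56 bases into the 3′ UTR, 2:191835861-191835867, minus strand: ccagggctgaaGAACAAActcttgcacatc
EHD2, 349 bases in, 19:47741781-47741787, plus strand: attaccatagaGAACAAAatagacaaatac
PACSIN2, 213 bases in, 22:42871139-42871144, minus strand: caggaagacgcaGAACAAcagaaatagccg
PACSIN2, 376 bases in, 22:42870976-42870981, minus strand: tgcaacttaaatGAACAAgcttacatccca
The CAVIN2 and EHD2 matches were of 7 bases with the trailing A, and both PACSIN2 matches were of 6 bases. None had the leading C that pairs with base 8. The 3′ UTRs of CAV1 (1897 bases), CAV2 (2420 bases), CAVIN1 (2235 bases) and CAVIN3 (217 bases) held none of these letters. Across 19146 coding genes with a 3′ UTR, 15.6% held a match of 7 or 8 bases and 30% held one of 6 or more, in UTRs with a median length of 1104 bases. Coding sequence held a 6-base match in CAVIN1, 2 in CAVIN2 and 1 in EHD2. Of the 7 coding transcripts of CAV1, CAV1-201 alone held a match, of 7 bases, in its 5′ UTR (7:116524902-116524908). A match is a stretch of letters and was not tested as a binding site.

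**Figure D1:**
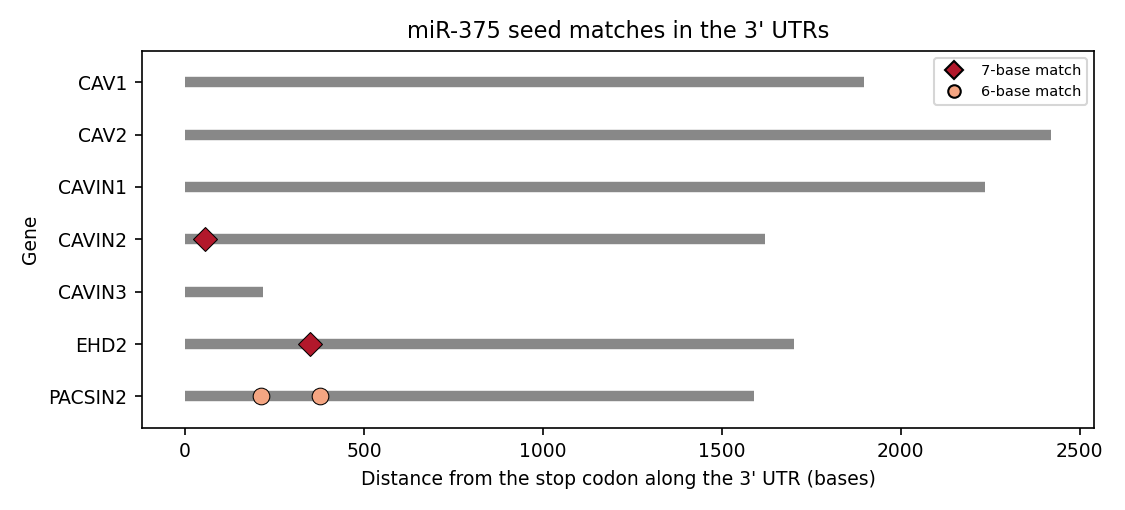
Seed matches of miR-375 along the 3′ UTR of each gene; the x axis is the distance from the stop codon in bases, grey bars span the UTR, diamonds are 7-base and circles 6-base matches. CAVIN2, EHD2 and PACSIN2 carry matches, and the bars of CAV1, CAV2, CAVIN1 and CAVIN3 are empty.

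Library totals ran from 33973861 to 41890528 counts. Levels are given as CPM, the count relative to the TMM-adjusted library total, and changes are log2 fold changes ± SE. Adjusted p-values come from the quasi-likelihood test of edgeR, adjusted by Benjamini-Hochberg over the 21066 genes that passed a filter on low counts, and a gene is said to rise, fall or differ where that value was under 0.05. Separate cultures within a group are not mentioned in the labels, so the spread behind each p-value is between libraries and may be technical. With 2 libraries a group, the test pools that spread over the 4 groups. It also draws the spread of each gene towards that of all tested genes, so small p-values rest largely on other genes. Fewer cells expressing a gene and less RNA per cell cannot be told apart in such bulk samples. Line markers stood with their labels: all 8 LNCaP markers were lower and all 8 PC3 markers were higher in the PC3 controls. KLK3, the prostate-specific antigen gene, had 0 counts in the 4 PC3 libraries and averaged 2786 CPM in the LNCaP controls. The mature miR-375 is not captured by poly(A) selection, so its overexpression was not checked here. CAVIN3 did not pass the filter. CAV1, CAV2, CAVIN2 and EHD2 owe most of their counts to PC3, and CAVIN1 owes all of its counts to LNCaP.

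The control lines held different members of the set. PC3 controls had abundant CAV1 and CAV2 RNA and no CAVIN1 count, whereas LNCaP controls had CAVIN1 and only traces of CAV1, CAV2 and EHD2. PACSIN2 was at a like level in both. Of the 6 genes tested, 4 were higher and 1 was lower in the PC3 controls, where 80.4% of all tested genes differed, 39.2% higher and 41.2% lower.

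CAV1 stood at 342 and 338 CPM in the PC3 controls, against 1.87 and 1.37 CPM in the LNCaP controls. The difference was 7.71 ± 0.08 on the log2 scale (adjusted p = 1.87e-41). CAV2 stood at 80.4 and 78.8 CPM in the PC3 controls, against 0.604 and 0.974 CPM in the LNCaP controls. It was 99.8-fold higher in PC3 (adjusted p = 8.30e-33). The libraries of the lines did not come near each other for either caveolin.

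CAVIN1 had 0 counts in both PC3 controls, against 242 and 267 counts (7.31 and 7.65 CPM) in the LNCaP controls. With 3 counts per library as the upper limit of a 0, its level was at least 96.1-fold lower in the PC3 controls (adjusted p = 1.63e-18). That limit covers counting error only, and the bound would be smaller if each fragment had been counted as a pair of reads, which is not stated. CAVIN2, which shapes membrane curvature, stood at 2.17 and 2.00 CPM in the PC3 controls and 0.997 and 0.859 CPM in the LNCaP controls, a log2 difference of 1.17 ± 0.38 (adjusted p = 0.00625). CAVIN3, a cavin that binds protein kinase C delta, had 0 counts in all 4 PC3 libraries and 2 counts in all in the LNCaP controls, under the limit of 3 counts. AC068733.3, a gene on the opposite strand, shares 557 exon bases with CAVIN3 and had 0 counts in every library. Strand use in counting is not stated, so reads there are uncertain.

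EHD2 stood at 4.52 and 4.44 CPM in the PC3 controls and 0.363 and 0.286 CPM in the LNCaP controls, a 13.7-fold difference (adjusted p = 1.94e-13). PACSIN2 stood at 92.4 and 93.2 CPM in the PC3 controls, against 87.3 and 88.2 CPM in the LNCaP controls. Its libraries did not overlap, yet the log2 difference of 0.08 did not pass (adjusted p = 0.138; 95% interval −0.02 to 0.18), and it did pass under 4 of 15 alternatives.

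Per length, as CPM per kilobase of all annotated exons, CAV1 led the PC3 controls at 83.2 ± 0.701, followed by PACSIN2 at 20.4 ± 0.127, CAV2 at 11.5 ± 0.161, EHD2 at 1.14 ± 0.0144 and CAVIN2 at 0.646 ± 0.0379 (SD, n = 2). Each stood apart from the next by more than its spread. In the LNCaP controls the order of levels per kilobase was PACSIN2 at 19.3 ± 0.151, CAVIN1 at 1.95 ± 0.0617, CAV1 at 0.398 ± 0.0864, CAVIN2 at 0.288 ± 0.0302, CAV2 at 0.114 ± 0.0377, EHD2 at 0.0827 ± 0.0137 and CAVIN3 at 0.0181 ± 0.0256. There CAV2 and EHD2 overlapped between libraries, and the CAV1 libraries (0.459 and 0.337) lay above those of CAVIN2 (0.309 and 0.266) by less than the gap between the CAV1 libraries. Measured against the length of a single coding transcript, the PC3 levels per kilobase were 106 for CAV1, 29.5 for PACSIN2 and 24.1 for CAV2, in the same order. In the LNCaP controls that length gave levels per kilobase of 0.183 and 0.295 for CAV2, which overlapped CAVIN2 (0.309 and 0.266) and lay above EHD2 (0.101 and 0.0799).

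**Figure D2:**
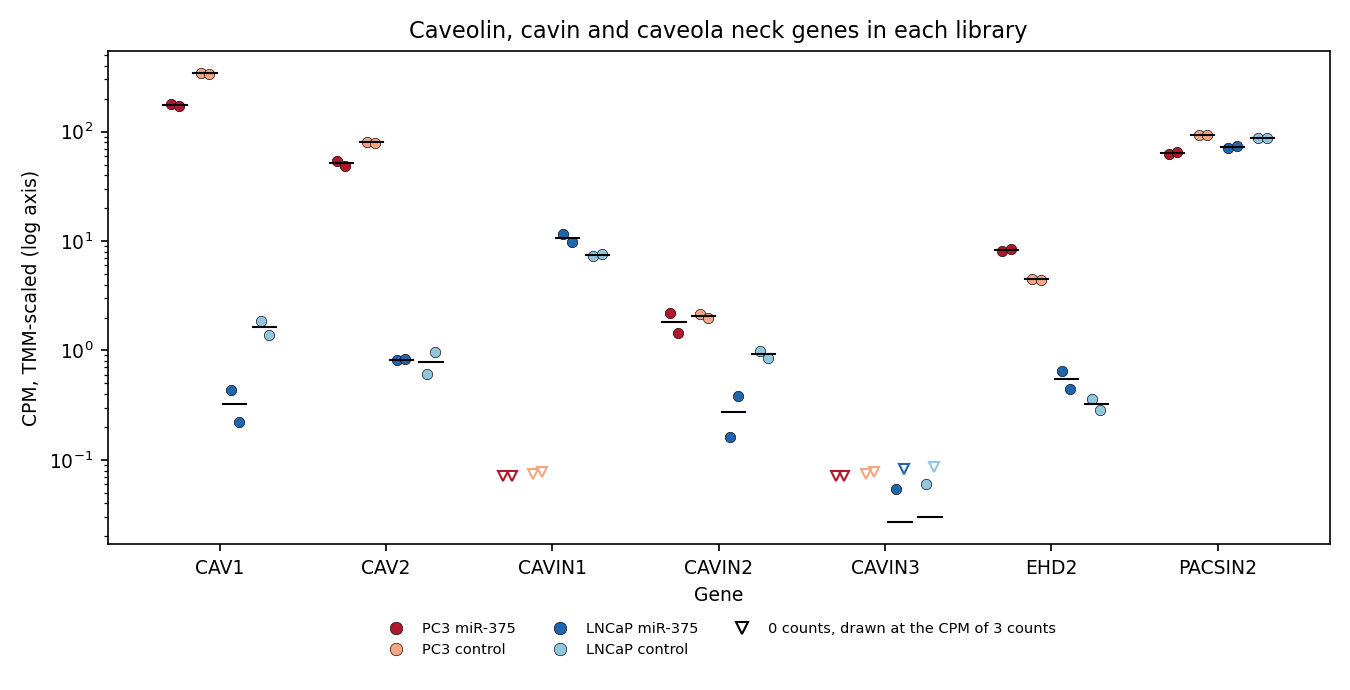
CPM of each gene in each library on a log axis, coloured by group, with a line at the mean of the 2 libraries; open triangles are libraries with 0 counts, drawn at the CPM of 3 counts. CAV1, CAV2 and EHD2 sit high in PC3 (red) and low in LNCaP (blue), CAVIN1 has counts in LNCaP alone, and PACSIN2 is level across the lines.

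With miR-375 the caveolin RNAs of PC3 fell, EHD2 rose and PACSIN2 fell. CAV1 fell 1.94-fold and CAV2 1.55-fold. Of the 5 genes with enough counts to compare, 3 fell and 1 rose, where 43% of all tested genes changed in PC3, 20.8% down and 22.2% up. Their median log2 change was −0.55, and that of all tested genes was 0.02. All 8 PC3 markers fell with miR-375 in PC3 as well, with a median log2 change of −0.83 and a summed level of 2266 to 2314 CPM, against 4032 to 4039 CPM in the PC3 controls. Of the 8 LNCaP markers 3 rose and 2 fell in PC3, FOLH1 by the most, with 5.45 and 5.93 CPM with miR-375 against 0.250 and 0.467 CPM in the controls. KLK2 and KLK3 were at 0 CPM in every PC3 library and could not be called. The part of these line markers in the caveola gene changes was not tested.

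CAV1 had 178 and 172 CPM in PC3 with miR-375, against 342 and 338 CPM in the PC3 controls. The log2 change was −0.96 ± 0.04 (adjusted p = 5.02e-20). CAV2 had 53.9 and 48.9 CPM with miR-375, against 80.4 and 78.8 CPM in the controls, a log2 change of −0.63 ± 0.07 (adjusted p = 2.84e-09). In both genes every miR-375 library lay under every control, and neither 3′ UTR holds the seed match shown above.

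The cavins gave little in PC3. CAVIN1 and CAVIN3 had 0 counts in both PC3 groups and so have no change to report. CAVIN2 had 2.22 and 1.45 CPM with miR-375 and 2.17 and 2.00 CPM in the controls, which overlap. Its log2 change of −0.19 did not pass (adjusted p = 0.727; 95% interval −0.91 to 0.53).

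EHD2 had 8.03 and 8.42 CPM in PC3 with miR-375, against 4.52 and 4.44 CPM in the controls, and rose 1.84-fold (0.88 ± 0.20, adjusted p = 5.20e-04). Its 3′ UTR, like that of CAVIN2, holds a 7-base match. PACSIN2, whose 3′ UTR holds 2 matches of 6 bases, had 62.6 and 64.5 CPM with miR-375, against 92.4 and 93.2 CPM in the controls. It fell 1.46-fold (−0.55 ± 0.05, adjusted p = 1.55e-11). Its neighbour ARFGAP3 shares 155 exon bases with it on the same strand, so reads there are uncertain. Raw counts of ARFGAP3 were 1431 and 1433 in PC3 with miR-375, against 2036 and 1805 in its controls. For LNCaP they were 1622 and 1443 with miR-375, against 1954 and 1939 in its controls.

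In LNCaP with miR-375, CAV1 and CAVIN2 were lower than their control levels of 0.859 to 1.87 CPM, CAVIN1 rose and PACSIN2 fell a little. Of the 6 genes tested 3 fell and 1 rose, where 32.6% of all tested genes changed in LNCaP, 18.7% down and 13.9% up. The median log2 change was −0.12, against 0 for all tested genes. Scaling by library totals in place of TMM shifts that last median by 0.12 and turns 2927 higher and 3933 lower genes into 4719 higher and 2613 lower. The 4 calls among the caveola genes kept their direction under that scaling.

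CAV1 had 0.434 and 0.222 CPM in LNCaP with miR-375 (16 and 8 counts), against 1.87 and 1.37 CPM in the controls (62 and 48 counts). The fall was 4.88-fold (−2.29 ± 0.28, adjusted p = 1.74e-08). CAV2 had 0.813 and 0.831 CPM with miR-375 and 0.604 and 0.974 CPM in the controls. These overlap, and the log2 change of 0.05 did not pass (adjusted p = 0.945; 95% interval −0.52 to 0.62).

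Such traces are small beside PC3. CAV1 in LNCaP with miR-375 was 0.187% of its level in PC3 with miR-375, and in the LNCaP controls it was 0.478% of its level in the PC3 controls. AXL, a receptor kinase gene on the PC3 marker list, behaved likewise, at 0.320% with miR-375 and 0.546% in the controls, with a log2 change of −1.75 in LNCaP (adjusted p = 1.64e-06). Of the 8 PC3 markers 3 rose and 3 fell in LNCaP with miR-375. The 8 together summed to 55.4 to 61.8 CPM with miR-375 and 46.9 to 62.9 CPM in the controls. Besides AXL, the log2 changes that passed were 2.22 for PLAU, 1.63 for CD44, 0.38 for VIM, −0.83 for FOSL1 and −0.48 for ANXA1. PLAU was at 0.148% of its PC3 level with miR-375 and 0.0162% in the controls. It had 0.242 and 0 CPM in the LNCaP controls, so the size of its change and its control share are uncertain. CD44 was at 1.27% with miR-375 and 0.357% in the controls. No PC3 marker was at 0 in a whole LNCaP group, and whether any PC3 RNA contributed to the CAV1 counts of LNCaP was not tested. CAV2 did not move with CAV1 there, at 1.60% of the PC3 level with miR-375 and 0.992% in the controls.

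CAVIN1 had 11.7 and 9.80 CPM in LNCaP with miR-375, against 7.31 and 7.65 CPM in the controls. The libraries did not overlap and the rise was 1.44-fold (0.52 ± 0.19, adjusted p = 0.0303). The call was lost without the first miR-375 library (0.44, adjusted p = 0.268), the first control (0.55, adjusted p = 0.117) or the second control (0.61, adjusted p = 0.0797). CAVIN2 had 0.163 and 0.388 CPM with miR-375 (6 and 14 counts), against 0.997 and 0.859 CPM in the controls (33 and 30 counts), a log2 change of −1.75 ± 0.49 (adjusted p = 0.00471). Without the first miR-375 library that call ended too (−1.21, adjusted p = 0.132), and without the second the change was −2.44. CAVIN2-AS1, an antisense gene sharing 233 exon bases, had 0 and 9 counts with miR-375 and 0 and 6 in the controls, and strand use in counting is not stated. CAVIN3 had 2 and 0 counts in each LNCaP group.

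EHD2 had 0.651 and 0.443 CPM in LNCaP with miR-375 and 0.363 and 0.286 CPM in the controls. The miR-375 libraries lay above the controls, but the log2 change of 0.75 did not pass (adjusted p = 0.198; 95% interval −0.12 to 1.63). PACSIN2 had 70.3 and 73.5 CPM with miR-375, against 87.3 and 88.2 CPM in the controls, and fell 1.22-fold (−0.29 ± 0.05, adjusted p = 1.87e-05). With library totals that change was −0.17.

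**Figure D3:**
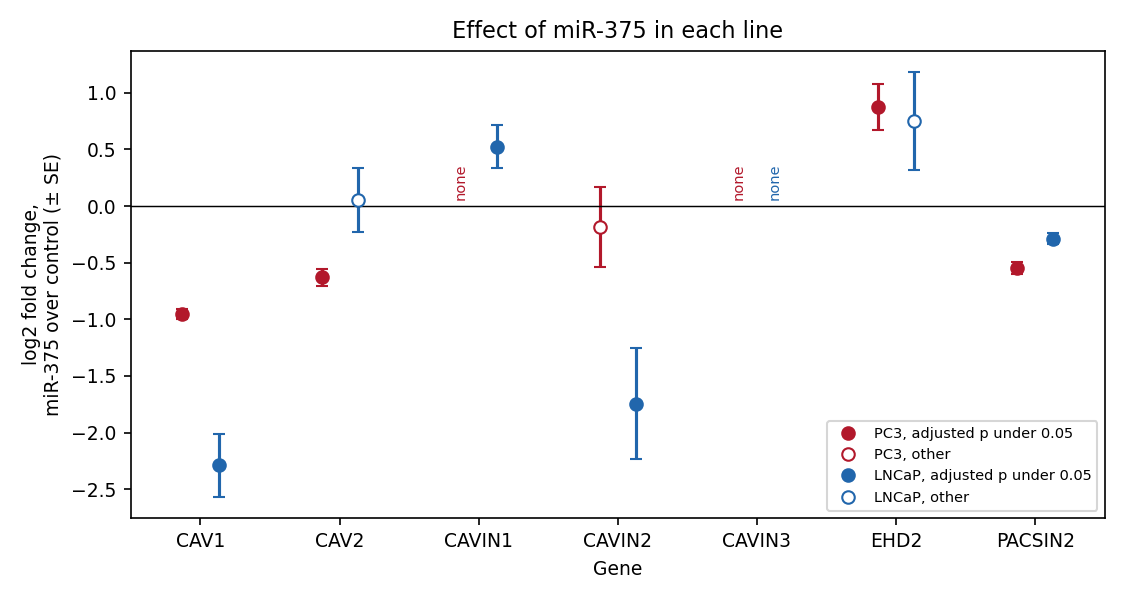
Log2 fold change of miR-375 over control ± SE for each gene in PC3 (red) and LNCaP (blue); filled points passed an adjusted p of 0.05, open points did not, and "none" marks genes with too few counts. CAV1 and PACSIN2 lie under 0 in both lines, and EHD2 lies above 0 in both but passed in PC3 alone.

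The size of the miR-375 effect was then compared between the lines, as the PC3 effect minus the LNCaP effect. CAV1 fell less in PC3 than in LNCaP on the log2 scale, by 1.33 ± 0.29 (adjusted p = 5.63e-04), and PACSIN2 fell more in PC3, with −0.26 ± 0.07 (adjusted p = 0.00564). Over all tested genes 26.5% had a difference that passed, 15.6% positive and 10.9% negative, and of these 5 genes 1 was positive and 1 negative. The CAV1 call rests on few LNCaP counts. It was lost with limma-voom (1.35, adjusted p = 0.0654) and when the second miR-375 library of LNCaP was left out (0.87, adjusted p = 0.0651). CAV2 (−0.68, adjusted p = 0.0864; 95% interval −1.27 to −0.09), CAVIN2 (1.56, adjusted p = 0.0544; 0.33 to 2.79) and EHD2 (0.12, adjusted p = 0.940; −0.91 to 1.16) did not pass. CAV2 did pass with DESeq2's test (−0.73, adjusted p = 0.0494) and without the second LNCaP control (−1.15, adjusted p = 0.0176). CAVIN2 passed without the second miR-375 library of LNCaP (2.23, adjusted p = 0.0317) or of PC3 (1.82, adjusted p = 0.0337). The CAV2 and CAVIN2 intervals leave out 0 because they are not adjusted for the number of genes. CAVIN1 cannot be compared, having no counts in PC3.

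CAV2 and CAV1 lie in that order on the plus strand of 7q31, CAV1 at 7:116524785-116561184 and CAV2 ending 16243 bases before it (GENCODE v29, GRCh38). Both were PC3 genes, and so was MET, the hepatocyte growth factor receptor gene on the other side of CAV1, with a log2 difference of 7.98 between PC3 and LNCaP controls (adjusted p = 7.34e-45). Of 5 neighbours examined TFEC, TES and MET were higher and CAPZA2 and ST7 lower in the PC3 controls. With miR-375 MET, CAPZA2, ST7 and TES changed less than CAV1 did in PC3: MET fell by 0.28, CAPZA2 fell by 0.10, ST7 rose by 0.49, and TES (0.04) did not pass. TFEC averaged 0.499 CPM with miR-375 and 0.638 CPM in the controls. Its change did not pass and was too uncertain to set against that of CAV1 (−0.35 ± 0.67). In LNCaP with miR-375, ST7 rose by 0.53 and CAPZA2 rose by 0.11, and the other 3 did not pass.

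**Figure D4:**
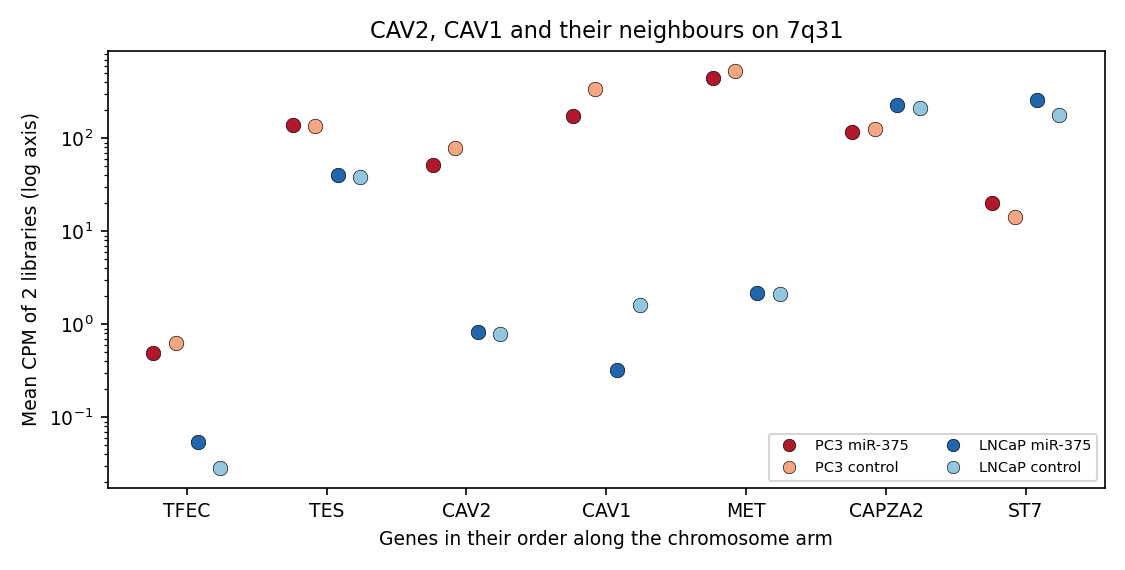
Mean CPM of the 2 libraries of each group, on a log axis, for CAV2, CAV1 and 5 neighbours in chromosomal order. From TFEC to MET the PC3 groups (red) lie above the LNCaP groups (blue), and at CAPZA2 and ST7 the order is reversed.

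The promoters of this caveolin pair were searched because their RNAs share the line difference and fell together in PC3. Each window is the 250 bases before the first RefSeq start listed (GRCh38.p14, plus strand), CAV1 at 7:116524759-116525008 and CAV2 at 7:116499488-116499737. Both windows overlap a first exon of a longer transcript, CAV1-201 and CAV2-201. GGGCGG, the GC box, was sought on both strands. The CAV1 window held 3 GC boxes and 18 CpG pairs, and the CAV2 window held 6 and 35. Windows of the other listed starts held 3 and 16 or 2 and 29 for CAV1, and 3 and 27 for CAV2. Of 35116 promoter windows of that length 42.6% held a GC box, and the median held 11 CpG pairs. TGANTCA, the AP-1 motif searched on both strands, was in none of the CAV1 and CAV2 windows and in 6.57% of all windows.

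CAVIN1 lies on 17q21 (17:42402452-42423517, minus strand), and its absence from PC3 was shared with the genes around it. This was looked at after the CAVIN1 counts were seen. CAVIN1 belonged to an unbroken run of 13 protein-coding genes, 17:42101404-42522611, each under 0.5 CPM in all 4 PC3 libraries. Of these, 10 had 0 counts in every PC3 library, and the largest PC3 count of any was 12, for ATP6V0A1, a proton pump subunit gene. In the LNCaP controls 8 of the 13 stood at 1 CPM or more. Among all coding genes at 1 CPM or more in the LNCaP controls, 4.65% were under that limit in PC3.

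STAT3, a transcription factor gene directly beside CAVIN1, averaged 0 CPM in PC3 with miR-375 and 0.0260 in the PC3 controls, against 170 CPM in LNCaP with miR-375 and 124 in the LNCaP controls. STAT5B, its paralogue, had 0 counts in every PC3 library and averaged 33.7 CPM in the LNCaP controls. The histone acetyltransferase gene KAT2A averaged 187 CPM and the endosomal GTPase gene RAB5C 69.8 CPM in the LNCaP controls, and neither exceeded 2 counts in a PC3 library. On the side of DHX58 the next coding genes had low levels in PC3: C17orf113 averaged 1.51 CPM in the PC3 controls and 3.12 CPM in the LNCaP controls, and ZNF385C averaged 0.620 CPM in the PC3 controls and 0.859 CPM in the LNCaP controls. On the other side, NAGLU, the next coding gene after ATP6V0A1, averaged 9.89 CPM in the PC3 controls and 53.8 CPM in the LNCaP controls, and COASY averaged 99.1 CPM in the PC3 controls and 128 CPM in the LNCaP controls. These are RNA counts, and the DNA of the lines was not measured.

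**Figure D5:**
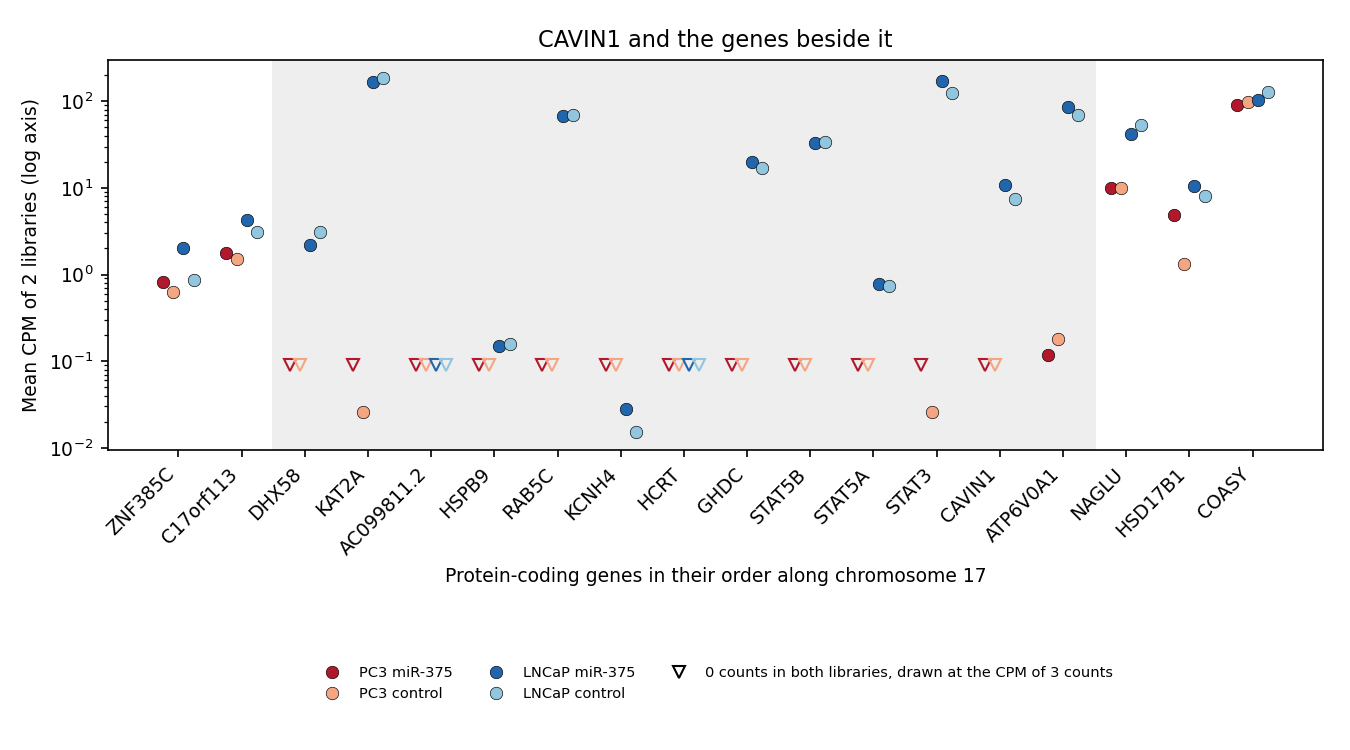
Mean CPM of the 2 libraries of each group, on a log axis, for CAVIN1 and the protein-coding genes beside it in chromosomal order; grey shading marks the run under 0.5 CPM in every PC3 library, and open triangles are groups with 0 counts, drawn at the CPM of 3 counts. Inside the shading LNCaP (blue) reaches 187 CPM while PC3 (red) stays at or near 0, and from NAGLU onward both lines have counts.

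Genes with the most similar pattern were ranked by the root mean square difference of centred log2 CPM over the 8 libraries. Nearest to CAV1 were AXL (0.32), ANXA3 (0.40), CNTN1 (0.44) and ANXA2 (0.47). AXL averaged 171 CPM in PC3 with miR-375, 342 in the PC3 controls, 0.547 in LNCaP with miR-375 and 1.87 in the LNCaP controls. CAV1 averaged 175, 340, 0.328 and 1.62 CPM in the same groups. Centring removes the level of a gene, so the ranking compares patterns and not levels. Nearest to CAVIN1 were AC063960.2 (0.07), TMPRSS13 (0.12), PAX1 (0.13), ZNF793 (0.14) and HEXA (0.14), all with 0 CPM in both PC3 groups. The line difference dominates this measure.

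Among 16 family and partner genes of caveolae, 14 were tested. In PC3 with miR-375, 4 rose and 8 fell, and in LNCaP 6 rose and 4 fell, with median log2 changes of −0.30 in PC3 and 0.20 in LNCaP. Beside these counts and those of the lists below, 22.2% of all tested genes rose and 20.8% fell in PC3. In LNCaP 13.9% of all tested genes rose and 18.7% fell. The genes ROR1, FLNA and FLOT1 are given as examples chosen after their values were seen. ROR1, a receptor that scaffolds CAV1 and CAVIN1, rose by 0.86 in PC3 (adjusted p = 1.54e-08) and by 0.82 in LNCaP (adjusted p = 4.37e-06). FLNA, the actin crosslinker that anchors caveolin, fell by 0.48 in PC3 (adjusted p = 2.16e-16) and stood at −0.01 in LNCaP. NOS3, the endothelial nitric oxide synthase gene, had 0 CPM in both PC3 libraries with miR-375, against 0.0998 and 0.156 CPM in the PC3 controls. These levels are close to that of 3 counts, 0.0712 to 0.0779 CPM in PC3, and no fall is read from them, although NOS3 is among the 8 counted. NOS3 rose by 0.94 in LNCaP, to 17.5 CPM with miR-375 against 9.10 CPM in the controls. CAV3 and CD36 did not pass the filter.

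Of 7 flotillin and stomatin genes, which mark membrane rafts outside caveolae, 2 rose and 4 fell in PC3 and 2 rose and 1 fell in LNCaP. FLOT1 rose by 0.36 in PC3 and by 0.14 in LNCaP. Of 10 clathrin coat genes, the other main endocytic coat, 1 rose and 7 fell in PC3 and 4 rose and 2 fell in LNCaP. The clathrin light chain gene CLTB fell by 1.17 in PC3, with 50.2 and 52.4 CPM with miR-375 against 111 and 120 CPM in the controls (adjusted p = 8.15e-20). The median log2 change of the clathrin genes was −0.32 in PC3 and 0.02 in LNCaP. No list was tested as a set, and the shares of all tested genes are those given above.

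Markers of cell types rich in caveolae were counted too, beside the same shares of all tested genes. Endothelial markers summed to 216 to 217 CPM in PC3 with miR-375 and 382 to 383 in the PC3 controls, nearly all from KDR and PECAM1, with CDH5 at 0.155 and 0.128 CPM. In LNCaP they summed to 7.21 to 8.31 CPM with miR-375 and 7.36 to 8.16 CPM in the controls. Of 7 tested, 0 rose and 3 fell in PC3, and 0 rose and 1 fell in LNCaP. The LNCaP fall was that of CLDN5, at 0.108 and 0.138 CPM with miR-375, against 1.09 and 0.716 CPM in the controls. Its levels with miR-375 were close to that of 3 counts, 0.0813 to 0.0831 CPM in those libraries. Fibroblast markers, mostly COL1A1, summed to 398 to 417 CPM in PC3 with miR-375 and 173 to 185 in the controls (4 rose and 1 fell of 7), and to 54.3 to 58.7 CPM in LNCaP with miR-375 and 47.2 to 56.4 CPM in the controls (1 rose and 0 fell). Smooth muscle markers summed to 7.81 to 7.88 CPM in PC3 with miR-375 and 4.72 to 5.11 CPM in the controls (2 of 6 rose), and to 11.4 to 14.0 CPM in LNCaP with miR-375 and 8.02 to 8.58 CPM in the controls (3 of 6 rose). Adipocyte markers, nearly all FABP4, summed to 52.2 to 56.5 CPM in PC3 with miR-375 and 17.1 to 17.3 CPM in the controls (1 of 3 tested rose). In LNCaP they reached 0.380 CPM with miR-375 and 0.363 CPM in the controls (0 of 3). FABP4, 1 of those 3, was at 0 CPM in every LNCaP library and could not be called there. LEP was at 0 in all 4 groups. DCN, counted as a rise in PC3, was at 0 in the PC3 controls and at 0.333 and 0.475 CPM with miR-375. LMOD1 and MYH11, counted as rises in LNCaP, stood at 0.0604 and 0 CPM and at 0.151 and 0.115 CPM in the controls. The level of 3 counts there was 0.0859 to 0.0907 CPM. No rise is read from these genes, although they are among those counted. The part of these markers in the caveola gene changes was not tested.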

How the data were processed

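The authors deposited raw whole-number counts per gene in 1 table covering all 8 libraries. The submitters' processing notes list hg38, featureCounts, DESeq2, fastp and STAR 2.7.1a, with no order. The annotation, strand setting, roles of these tools and whether a count is a read or a pair are not stated, and from 68.1% to 70.3% of counts between 1 and 20 were even. Of 60625 lines, 3 were broken and left out (279 counts). Totals ran from 33973861 to 41890528 counts.

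Genes passing filterByExpr were fitted in 1 model of 4 groups with edgeR 4.0.16 (TMM, robust glmQLFit, glmQLFTest, 4 residual degrees of freedom) in R 4.3.3. SE is the log2 fold change over the square root of F. The fit was checked on simulated counts. Alternatives were size factors from DESeq2 1.42.0, library totals, no filter, DESeq2's test, limma-voom 3.58.1, a replicate block, halved counts, each line alone and each library left out. Positions, lengths and transcripts are from GENCODE v29 (GRCh38); the promoter table held CAV1, CAV2, CAVIN2, EHD2 and PACSIN2. Named genes are the members, list genes called with a log2 change of 1 or more or needed as a reference, and the 5 nearest in pattern to CAV1 and to CAVIN1, of which 1 is not reported here; ROR1, FLNA and FLOT1, and the genes beside CAVIN1, were chosen after their values were seen. Members and lists were chosen with earlier results of these data known. Replicates differed by more than counting noise (chi-square per gene 3.57 to 3.79), and none was a duplicate.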

Additional observations from a re-analysis of the deposited data

Results flagged for a closer look

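The change of CAV1 with miR-375 differed between the lines, by 1.33 on the log2 scale (PC3 effect minus LNCaP effect, adjusted p = 5.63e-04 by edgeR's quasi-likelihood test). That difference rests on few LNCaP counts and did not pass with limma-voom (adjusted p = 0.0654). It was 0.87 without the second miR-375 library of LNCaP. CAV1 was lower with miR-375 in 2 of 2 libraries of each line. The change of PACSIN2 differed by −0.26 (adjusted p = 0.00564), and it too was lower in 2 of 2 libraries of each line.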

How the results depend on the processing

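The calls of CAV1, CAV2, EHD2 and PACSIN2 in PC3, of CAV1 and PACSIN2 in LNCaP, and of CAV1, CAV2, CAVIN1, CAVIN2 and EHD2 between control lines kept direction and call under the 15 or 16 alternatives run for each. Over all member results 323 values kept both, 6 lost and 8 gained a call, and 4 changed sign, each without a call: CAV2 in LNCaP (−0.19 without the first control, from −0.19 to 0.49 without single libraries), CAVIN2 in PC3 (0.084 without the second miR-375 library, from −0.52 to 0.084) and the line difference of EHD2 (−0.19 without the second LNCaP miR-375 library and −0.13 without the first LNCaP control, from −0.19 to 0.36). The number of risen members in LNCaP was 0 to 1 when single libraries were left out. For the line difference the members higher numbered 0 with limma-voom and 1 to 2 without single libraries, and those lower 2 with DESeq2 and 1 to 2 without single libraries. With library totals 4719 genes rose and 2613 fell in LNCaP. Replicate numbers did not pair the samples (correlations of deviations from −0.01 to 0.02 between groups). With the replicate block 2796 genes rose and 3821 fell in LNCaP, 4505 and 4272 in PC3, and no member's call changed. A left-out library leaves its group with 1, assumed to vary like the others. Per-length levels used a second length, chosen after seeing the data. In LNCaP, depth limits CAV1, CAV2, CAVIN2 and EHD2, which had 6 to 62 counts in a library.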
